A study of Homo sapiens with 10 samples.

Results

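The expression of 10 Notch pathway genes was followed through the hepatic differentiation of the H1 cell line, which consists of human embryonic stem cells (hESCs) and is widely used. The genes were the receptors NOTCH1, NOTCH2 and NOTCH3, the ligands JAG1, DLL1 and DLL3, the glycosyltransferase LFNG and the target genes HES1, HEY1 and HES4. They were chosen by name, and 8 of the 10 had a row in the table of 12125 genes. DLL1 and DLL3 are not analysed here. RNA-seq libraries were made daily from day 0 to day 3, every other day from day 5 to day 13, and at day 21. There was 1 library a day from 1 line and no replicate, so every difference between days compares single libraries and none carries a p-value. Cells at day 0 were undifferentiated and had received none of the factors of the protocol. By the methods of the paper, undifferentiated cells were kept in mTeSR1 medium. Activin A (100 ng per ml) was present at days 1 to 3, the interval of definitive endoderm (DE), in RPMI/B27 medium without insulin. Between days 0 and 1, Activin A and the change of medium therefore cannot be told apart. FGF4 (30 ng per ml) and BMP2 (20 ng per ml) were present at days 5 and 7, and HGF and KGF (20 ng per ml) at days 9 and 11. In both of these steps the methods give RPMI/B27 medium with insulin. Between days 3 and 5, the change of factors and the addition of insulin therefore cannot be told apart. The library of day 21 came from hepatocyte-like cells in Oncostatin M (OSM, 20 ng per ml) in a hepatocyte medium. For day 13 the sample label gives OSM, whereas the lengths of the steps in the protocol make it the last day in HGF and KGF.

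Notch signalling passes between touching cells. A ligand of the Jagged or Delta family on one cell binds a Notch receptor on its neighbour, proteases release the intracellular part of the receptor, and this part joins the DNA-binding protein RBPJ and Mastermind proteins to switch on genes such as HES1, HEY1 and HES4, which encode basic helix-loop-helix repressors. Fringe enzymes such as LFNG add sugars to the receptor and shift its preference between Delta and Jagged ligands. In the developing liver the pathway is known for directing hepatoblasts towards the bile duct fate, with JAG1 and NOTCH2 as the pair altered in Alagille syndrome.

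RBPJ is known to bind the letters TGGGAA, best of all as part of GTGGGAA, and HES1 is the classic target that carries such sites close to its start. The upstream bases of HES1 are shown because the letters stand in them in duplicate, and a short stretch of HES4 because it shares the same run. The sequences are those of RefSeq on GRCh38.p14, which had entries for 7 of the 10 genes. The 247 bases of HES1 before its annotated first exon, on the plus strand at chr3:194135898-194136144, hold TGGGAA at 2 places, in capitals.
HES1 upstream: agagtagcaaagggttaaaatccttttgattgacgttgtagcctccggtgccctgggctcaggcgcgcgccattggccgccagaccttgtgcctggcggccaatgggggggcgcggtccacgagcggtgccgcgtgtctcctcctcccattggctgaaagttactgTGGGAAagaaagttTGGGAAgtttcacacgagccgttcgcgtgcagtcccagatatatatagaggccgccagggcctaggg
The longest run of letters that the upstream windows of HES1 and HES4 share is 12 bases long, in capitals in the 30-base stretches of HES1 (chr3:194136053-194136082, plus strand) and HES4 (chr1:1000155-1000184, minus strand).
HES1 site: gaaagttacTGTGGGAAAGAAagtttggga
HES4 site: tggggcgagTGTGGGAAAGAAtgcggagcc
The run lay 86 to 75 bases before the start of HES1 and 78 to 67 bases before that of HES4, where a longer annotated HES4 transcript (HES4-202) already covers 18 of the 30 bases shown. In windows of 250 bases before the start, on either strand, TGGGAA was found in 20.8% of 35116 promoters, GTGGGAA in 5.43%, TGTGGGAA in 1.43% and the shared run in 6 promoters. Each shorter motif lies inside the longer ones. The shared run was taken from the HES1 and HES4 windows themselves. Both genes are therefore among the 6 by construction, and the count is no test of the run. Of the other genes, LFNG held TGGGAA in 1 of its 2 windows, and NOTCH1, NOTCH2, NOTCH3 and JAG1 did not hold these letters in theirs. CACNAG, an N-box of the kind that HES proteins bind, was found at 3 places upstream of HES1 and in 32% of all promoters. LFNG (in 1 of its 2 windows) and NOTCH3 held it at 1 place each, and HES4, NOTCH1, NOTCH2 and JAG1 did not. These are matches of letters and not measurements of binding.

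The values are the GC-normalized whole numbers that the authors deposited. They are scores and not read counts: each library has a maximum of 18734 and a median of 81 or 82, so that depth cannot be read from them. The 8 genes lay between 0 and 1021, below the top levels that the libraries share. The 3 pluripotency markers POU5F1, NANOG and SOX2 summed to 5692 at day 0 and 5 at day 21, the sum of the 4 DE markers was highest at day 3 (2190) and that of the 3 hepatocyte markers at day 21 (27028), although FOXA2 was highest at day 7 and APOA1 at days 7 and 13. Without replicates, the spread was taken from days 9 and 11, which share a medium. The SD of their differences of log2(value + 1) was 0.87 for genes with values of 10 to 25, 0.45 for 25 to 50, 0.40 for 50 to 100, 0.32 for 100 to 200 and 0.28 for 200 to 500. This is a low measure, since only 1.12% of genes differed 2-fold between these days, the smallest share of any successive pair. A gene is called changed here when log2(value + 1) differed by at least 1 and the larger value was at least 50. HEY1 and HES4 never reached 50 and could not be called. HES1 had both values below 50 at day 13 against day 7 and at day 21 against days 13 and 0. JAG1 had both below 50 at day 13 against day 7. In these comparisons they could not be called either.

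The receptors followed different courses. NOTCH1 is listed as ENSG00000148400 (chromosome 9, 139388896 to 139440314, minus strand). The value was 410 in hESCs, 508, 232 and 176 on the days in Activin A, 116 and 36 on the days in FGF4 and BMP2, 82 and 118 on days 9 and 11, 119 on day 13 and 148 in hepatocyte-like cells. It was thus highest in hESCs and after 1 day of Activin A, lowest at the end of FGF4 and BMP2, and between these levels later. The log2 difference was -1.22 from day 0 to day 3, -2.26 from day 3 to day 7 and 1.70 from day 7 to day 13, against an SD of 0.28 to 0.40 for genes of these levels. From day 11 to day 13 it differed by 0.01 and from day 13 to day 21 by 0.31, within that spread. In bulk libraries such as these, fewer cells that express a gene and less RNA per cell cannot be told apart.

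NOTCH2, the receptor tied to bile duct formation, is listed as ENSG00000134250 (chromosome 1, 120454176 to 120612240, minus strand). Its values were 208, 269, 242 and 210 at days 0, 1, 2 and 3, then 338, 330, 395, 504, 675 and 659 at days 5, 7, 9, 11, 13 and 21. Every library from day 5 on lay above every library up to day 3. Day 13 was higher than day 7 by 1.03 on the log2 scale and day 21 higher than day 0 by 1.66, a ratio of 3.17. The top values, at days 13 and 21, differed by 0.03 and cannot be ordered (with scaling by the median of ratios day 21 was the highest), nor can those of days 0 and 3. NOTCH2 also shares nearly identical sequence with the NOTCH2NL genes, and its reads could be split among them.

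NOTCH3, a receptor best known from mural cells of vessels, is listed as ENSG00000074181 (chromosome 19, 15270445 to 15311792, minus strand). Its values were 436 in hESCs, 598, 535 and 704 in Activin A (days 1, 2 and 3), 1021 and 334 in FGF4 and BMP2 (days 5 and 7), 232 and 253 in HGF and KGF (days 9 and 11), 242 for day 13 and 390 for day 21. The highest point was day 5, in the FGF4 and BMP2 step, and the value at day 7, in the same medium, was lower by 1.61 on the log2 scale (SD 0.29). Day 5 was higher than day 0 by 1.23, while day 21 and day 0 differed by only 0.16. The mural marker RGS5 was also highest at day 5 (4858, against 46 at day 0 and 40 at day 21), whereas PDGFRB, another, was at 53 at day 5 and highest at day 21 (518), and the part of such cells in the NOTCH3 course was not tested.

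Levels of different genes can be set side by side only per transcript length. Divided by the longest coding transcript in kb (9306 bases for NOTCH1, 11389 for NOTCH2 and 8666 for NOTCH3), NOTCH3 had the largest value of the 3 receptors at days 0 to 7 and NOTCH2 at days 9 to 21. At day 0 the values per kb were 44.1 for NOTCH1, 18.3 for NOTCH2 and 50.3 for NOTCH3. At day 5 NOTCH3 made up 73.7% of the sum of the 3, and at day 13 NOTCH2 made up 59.3% and NOTCH1 12.8%. The transcripts differ in GC content (mean of 65.6% for NOTCH1, 48.5% for NOTCH2 and 60.8% for NOTCH3), and the part of the GC normalization in the order of the receptors within a day was not tested.

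JAG1, the ligand with a row, is listed as ENSG00000101384 (chromosome 20, 10618332 to 10654608, minus strand). It stood at 180 before differentiation, then at 54, 82 and 124 on days 1, 2 and 3, at 42 and 47 on days 5 and 7, at 78 and 64 on days 9 and 11, and at 39 and 58 on days 13 and 21. JAG1 was highest in hESCs, was lower by 1.72 on the log2 scale after 1 day of Activin A, and was lower again by 1.54 from day 3 to day 5, when Activin A was replaced. In between, days 2 and 3 were each 0.59 above the day before, which is above the SD of 0.32 to 0.40 but below the threshold. Later libraries, from day 5 to day 21, stayed between 39 and 78, and day 21 was lower than day 0 by 1.62.

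LFNG, the fringe enzyme that modifies Notch receptors, is listed as ENSG00000106003 (chromosome 7, 2552163 to 2568061, plus strand). The value was 52 in hESCs, 12, 22 and 13 in Activin A, 252 and 351 in FGF4 and BMP2, 214 and 136 on days 9 and 11, 90 on day 13 and 5 in hepatocyte-like cells. The libraries fall into low values in Activin A, high values in FGF4 and BMP2, and lower values at each later day sampled. From day 3 to day 7 the value was 27-fold higher (log2 difference of 4.65), and 2.21% of all genes differed by as much over these days. From day 13 to day 21 it was lower by 3.92 on the log2 scale, which 0.602% of all genes reached. Both differences have 1 value of 13 or less, where the spread between libraries is large, and with a pseudocount of 5 they were 4.31 and -3.25.

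The 7 biliary markers with a row, of 8 listed, summed to 1796 in hESCs, 2015 on day 3, 6385 on day 7, 3317 on day 13 and 4610 on day 21. The day 7 sum was mostly KRT19 (3861), which was highest that day like LFNG. The list did not share this peak as a whole: EPCAM was highest at day 5, CFTR and KRT7 at day 11 (704 and 66), SPP1 at day 21 (1896) and SOX4 at day 0, and the median log2(value + 1) was 8.83 at day 7 and 9.02 at day 21. KRT7, a defining marker of bile duct cells, was listed at 0 at days 1, 2 and 3. The part of biliary cells in the LFNG course was not tested.

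The target genes did not move together. HES1, the best studied Notch target, is listed as ENSG00000114315 (chromosome 3, 193853934 to 193856521, plus strand). It was at 31 in hESCs, rose to 234 on day 1 in Activin A, and was at 72 on both day 2 and day 3. Later libraries had 88 and 46 (days 5 and 7), 42 and 31 (days 9 and 11), 26 (day 13) and 11 (day 21). The library of day 1 stood apart from all others, 7.55-fold above day 0 (log2 difference of 2.88, SD 0.32), and 1.53% of all genes differed by as much between these days. The value was lower by 1.69 at day 2 than at day 1, and from day 7 on each library was below the one before, though neighbours such as days 7 and 9 differed by less than the spread. The peak at day 1 rests on 1 library, in which JAG1 was at 54 against 180 at day 0. Over the same day the mesendoderm markers MIXL1 and EOMES together went from 13 to 1962.

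HES4, which shares the run of letters shown above with HES1, is listed as ENSG00000188290 (chromosome 1, 934342 to 935552, minus strand). It was listed at 0 up to day 2 and at 3 on day 3, then had 36 and 44 in FGF4 and BMP2, 30 and 21 in HGF and KGF, 14 on day 13 and 18 on day 21. At day 1, when HES1 was at its highest, HES4 was at 0. On days 7 and 13 HES1 had 46 and 26 and HES4 had 44 and 14, all below 50, so that neither gene could be called. All HES4 values are low, and its transcripts have a mean GC content of 74.2%, against a median of 49.7% over the 11961 genes found in GENCODE release 29, and the part of the GC normalization in its values was not tested.

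HEY1, the third target, is listed as ENSG00000164683 on chromosome 8. The value was 19 before differentiation, 26, 0 and 3 on days 1, 2 and 3, 22 and 6 on days 5 and 7, 14 and 6 on days 9 and 11, 10 on day 13 and 32 on day 21. Neighbours in the ranked values mostly cannot be ordered: in 8 of the 9 gaps the difference was within the SD for such low values. Days farther apart in rank differed by more, with day 2 listed at 0 against 26 on day 1 (a difference of log2(value + 1) that 0.462% of all genes reached) and day 21 above day 11 by 2.24 (SD 0.87).

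Counted over the steps of the protocol, 3 of the 8 genes were changed at day 3 against day 0, with HES1 higher and NOTCH1 and LFNG lower, beside 14.9% of all 12125 genes. LFNG had 52 at day 0, just above the minimum, and with the libraries scaled by the median of ratios it was not called, which left 1 gene higher and 1 lower. For day 7 against day 3 it was 4 of 8, with LFNG higher and NOTCH1, NOTCH3 and JAG1 lower, beside 19.5%. For day 13 against day 7 it was 3 of 8, with NOTCH1 and NOTCH2 higher and LFNG lower, beside 13.1%. NOTCH2 passed narrowly (1.03), and with day 11 in place of day 13 it was not called (0.61). For day 21 against day 13 only LFNG passed, beside 12.8%, and it was lower. Between the ends of the course, day 21 against day 0, 4 of 8 were changed, with NOTCH2 higher and NOTCH1, JAG1 and LFNG lower, beside 40.3% of all genes. LFNG was thus called in each of the 5 comparisons, higher in 1 and lower in 4, but in 3 of the 5 under the median of ratios. The larger value reached 50 for 6, 6, 4, 5 and 5 of the 8 genes in the order given, and only these could be called. Of all genes that reached it, 20.2%, 26%, 17.9%, 17.7% and 50.4% were changed. HES1 was lower by 1.17 at day 21 than at day 13 (11 against 26) but could not be called. The median log2 difference of the 8 genes was -0.26, 0.01, -0.36, 0.33 and -0.79 in the same order. That of all genes lay between -0.12 and -0.03.

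The single steps between neighbouring libraries, looked at after the values had been seen, show on which days these differences arose. Day 1 against day 0 had 3 of 8 called, with HES1 higher and JAG1 and LFNG lower, beside 6.2% of all genes. Day 2 against day 1 had NOTCH1 and HES1 lower, beside 5.07%. Across the change from Activin A to FGF4 and BMP2, which also added insulin, day 5 against day 3 had LFNG higher and JAG1 lower, beside 10.9%. Across the change to HGF and KGF, day 9 against day 7 had only NOTCH1 called, higher by 1.17, beside 4.12%. Within the FGF4 and BMP2 step, day 7 against day 5 had NOTCH1 and NOTCH3 lower, beside 10.1%. None of the 8 was called at day 3 against day 2 (2.58%), day 11 against day 9 (1.12%) or day 13 against day 11 (1.84%).

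**Figure D1:**
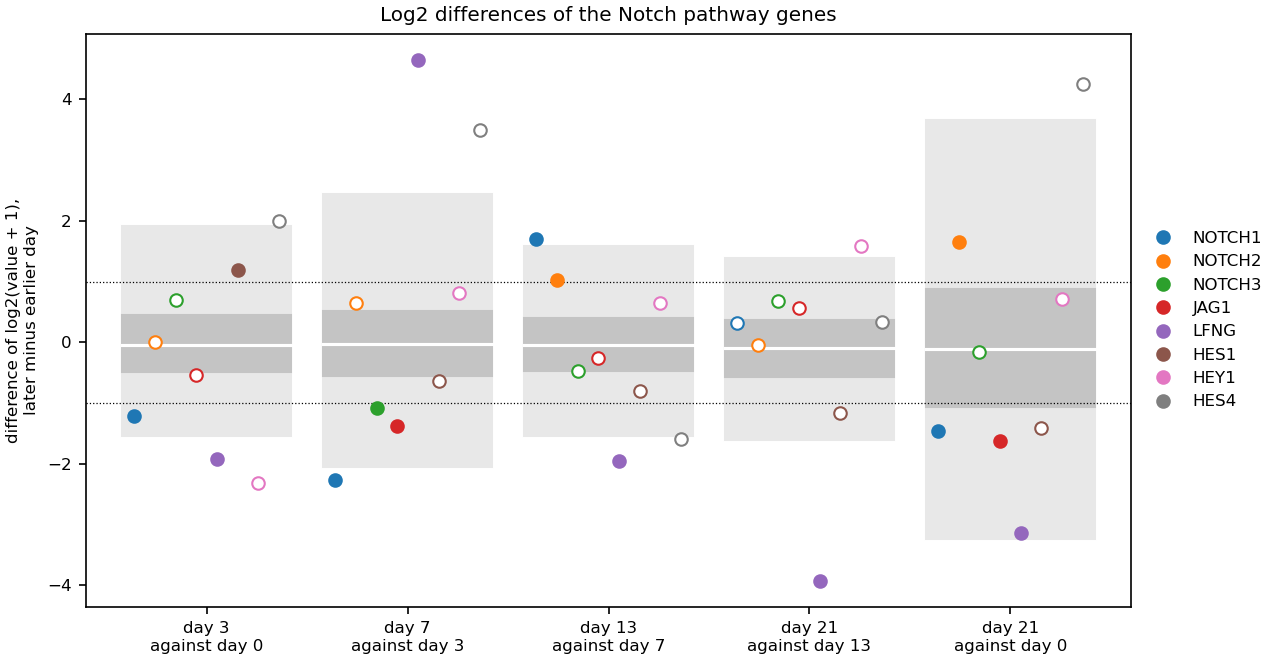
Difference of log2(value + 1), later minus earlier day (vertical axis), of the 8 genes in the 5 comparisons, with filled circles for genes called changed, open circles for the others and dotted lines at the threshold of 1; grey boxes span the percentiles 5 to 95 (light) and 25 to 75 (dark) of all 12125 genes, with the median in white. LFNG lies outside the light box at day 3 against day 0 (-1.92), at day 7 against day 3 (4.65), at day 13 against day 7 (-1.95) and at day 21 against day 13 (-3.92), and inside it at day 21 against day 0. LFNG is not the only gene outside it. HEY1 at day 3 against day 0 (-2.32) and HES4 at day 7 against day 3 (3.49), both from low values and not called, lie outside as well.

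Of 50 other genes of the pathway, listed by role, 38 had a row. In 1 or more of the 5 comparisons 23 of the 38 were changed, a share to be read beside the 54.3% of all genes that were. At day 3 against day 0, 6 of 38 (15.8%, beside 14.9% of all genes) were changed, among them FURIN and MAML3, which were higher, and RBPJ, NRARP and DTX2, which were lower. At day 7 against day 3, DLK1 and DTX4 were higher and HES6, MIB1 and DTX3 lower (13.2% of the 38, beside 19.5%). At day 13 against day 7, DLK1, MAML2 and NEURL1B were higher and 0 lower (7.89%, beside 13.1%). At day 21 against day 13, DLK1, APH1B, RBPJ, MIB2 and DTX3 were higher and 0 lower (13.2%, beside 12.8%). Between the ends of the course 16 of 38 (42.1%, beside 40.3%) were changed, 13 higher and HES6, NRARP and DTX2 lower. The 10 of the changed genes with the widest range over the days are described by role, and NOTCH4 is not analysed here.

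RBPJ, the DNA-binding partner of all Notch receptors, had 628 in hESCs, 258 on day 3, 166 on day 7, 138 on day 13 and 316 in hepatocyte-like cells, with a low of 98 on day 9. It fell by 1.28 on the log2 scale from day 0 to day 3 and was higher by 1.19 at day 21 than at day 13. Most of the early fall lay between days 0 and 1, with 270 at day 1 (log2 difference of -1.21). Of the Mastermind co-activators, MAML2 had 20 in hESCs and 13 on day 7, against 80 and 92 on days 13 and 21.

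Of the 3 other target genes with a row, HES6 and NRARP were both high in hESCs and near 0 at the end. HES6, a HES family member that opposes HES1, went from 124 in hESCs and 106 on day 3 to 6 on day 7 and 2 on day 21. NRARP, a feedback inhibitor of the receptor complex, had 93 and 94 on days 0 and 1, 34 and 15 on days 2 and 3, and later between 32 and 2, the last on day 21. NRARP thus did not share the peak of HES1 at day 1. HEY2, the remaining target with a row, was at 33 in hESCs and 5 on day 21 and never reached 50.

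Among ligands, DLK1, a non-canonical ligand and a marker of hepatoblasts, was listed at 0 in hESCs and had 6 on day 3, 106 on day 7, 310 on day 13 and 4855 on day 21. The last value is one of the shared top levels (APOA1 was also listed at 4855, at days 7 and 13), so its size is not exact. JAG2 had 28 in hESCs, 76 on day 7 and 96 on day 21, the opposite order of its relative JAG1 at the ends of the course. The protease FURIN, which cleaves receptors on their way to the surface, had 149 in hESCs, 420 on day 3, 733 on day 13 and 444 on day 21.

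Among the ubiquitin ligases, MIB2, which acts on ligands, had 99 in hESCs, 138 on day 13 and 355 on day 21. NEURL1B had 51 and 124 on days 0 and 1, 4 on day 7 and 64 on day 13, with its low point at the day where NOTCH1 was lowest. DTX3 had 109 in hESCs, 137 on day 3, 36 on day 7, 20 on day 11 and 65 on day 21.

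**Figure D2:**
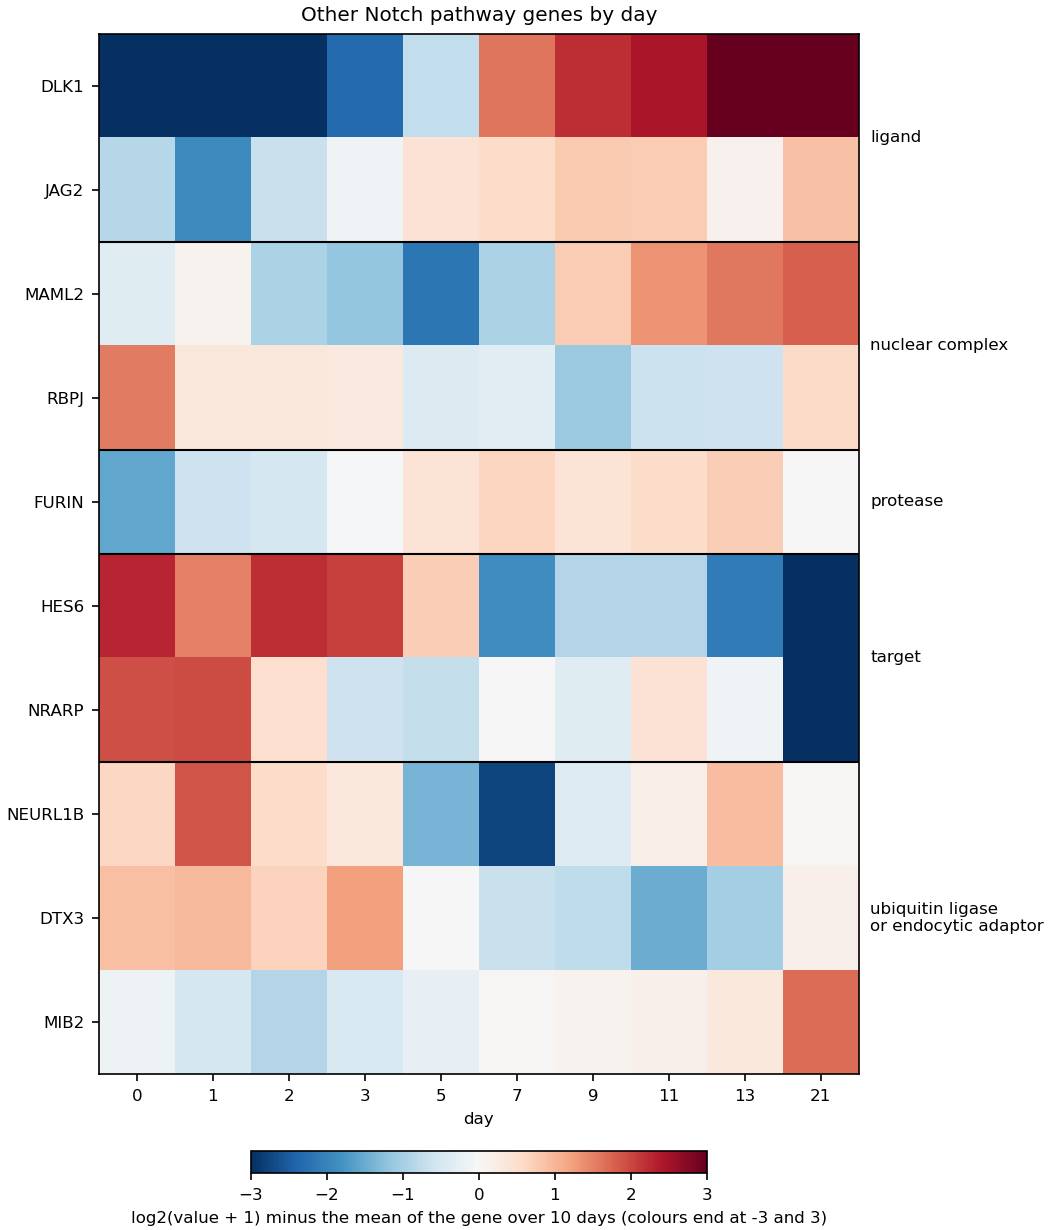
Heat map of log2(value + 1) minus the mean of each gene over the 10 days, for the 10 other Notch pathway genes with the widest range among those changed, grouped by role (rows) and by day (columns), with 1 library per column and colours ending at -3 and 3. DLK1 is blue up to day 5 and red later, MAML2 is blue from day 2 to day 7 and red later, HES6 and NRARP are red at day 0 and dark blue at day 21, and NEURL1B is darkest blue at day 7.

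Among themselves the 8 genes shared no common course. Over the 10 days, 12 of their 28 pairs had a positive Pearson correlation of log2(value + 1), with a median of -0.03, and none reached 0.7. The strongest pair was negative, NOTCH1 with HES4 (r = -0.89), and the strongest positive pairs were NOTCH2 with HES4 (0.65) and LFNG with HES4 (0.61). Each of these pairs includes HES4, which was at 0 on 3 days and at most 44, so they rest on low values. HES1 had 0.59 with NOTCH3 and -0.42 with HES4. Successive days of 1 course are not independent points, and these values are descriptions. The range of log2(value + 1) over the course had a median of 4.04 for the 8 genes and 1.70 for all genes. Of the 8, NOTCH2 had the smallest range (1.69) and LFNG the largest (5.87), although the ranges of HEY1 (5.04) and HES4 (5.49) come from values at or near 0. When the 10 days of a gene were ranked, 5 of the 9 gaps between neighbours exceeded the SD for NOTCH1 and for LFNG, 3 for NOTCH2, NOTCH3, HES1 and HES4, 2 for JAG1 and 1 for HEY1.

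By the same correlation over 10 days, the most similar of the 10745 genes with a highest value of at least 50 were found for each gene. They were TYSND1 (r = 0.97), GLI2 (0.96) and RAB3GAP2 (0.96) for NOTCH1, TMEM214 (0.98), RAMP1 (0.98) and CSF1 (0.98) for NOTCH2, and EFS (0.96), TC2N (0.94) and BAZ1A (0.94) for NOTCH3. For JAG1 they were ENO1 (0.89), B3GALT5 (0.85) and SUGP2 (0.84), and for LFNG MARC1 (0.95) and DGKK (0.95). For HES1 they were SLC25A17 (0.95), AP2M1 (0.94) and ZNF142 (0.94). For HES4 they were DOCK8 (0.99), SMOX (0.99) and COL4A5 (0.99), and for HEY1 RNF167 (0.89), a gene known by a clone name (0.88) and CNIH4 (0.87). The correlations of HES4 and HEY1 rest on values that never reached 50. Similarity of shape did not mean a similar range: RAB3GAP2 ranged from 131 to 197, and NOTCH1 from 36 to 508. DGKK had a wide range like LFNG, with 48 in hESCs, 8 on day 3, 314 on day 7, 22 on day 13 and 3 on day 21.

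Most stromal and mural markers were higher on the days when NOTCH2 was high. The 11 stromal and mural markers with a row, of 12, summed to 980 in hESCs, 2425 on day 3, 6486 on day 7, 38607 on day 13 and 40147 on day 21, and only LUM and DCN of them were at 0 at day 3. The late sums hold COL1A2 at the shared maximum of 18734 and COL3A1 at 6502 on each day from day 9, so their size is not exact. Members also went the other way: RGS5 had 1158 on day 7 and 40 on day 21, and TAGLN 1324 on day 3 and 206 on day 21. The median log2(value + 1) of the list was 4.46 on day 3, 8.06 on day 7 and 9.44 on day 21. The 5 endothelial markers of 8 summed to 349 on day 3, 358 on day 7, 1972 on day 13 and 1270 on day 21, and EMCN was at 0 at days 5 and 7. Of the 8 neural markers 2 had a row, NES with 768 in hESCs, 919 on day 3 and 70 on day 21, and OTX2 with 22 in hESCs, 936 on day 3 and 0 on day 21. The 2 mesendoderm markers of 8, MIXL1 and EOMES, summed to 1975 at day 3 and 4 at day 13. OTX2, MIXL1 and EOMES are also known from early endoderm and do not set apart another cell type. The part of stromal, mural and endothelial cells in the courses of the Notch pathway genes was not tested.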

How the data were processed

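Single RNA-seq libraries of H1 hESCs on 10 days were analysed. The authors prepared the libraries with the TruSeq kit, aligned reads to the Ensembl transcriptome, normalized for GC content with EDASeq, and deposited whole numbers for 12125 genes. The deposited values are scores and not counts: the libraries share nearly the same distribution, which hides depth and overall shifts in RNA, so no counting interval is given. The intervals of the table are printed as listed, with no build named there. They are not on the coordinates of GRCh38.p14, so they cannot be set against the positions given for the upstream sequences. The submitters' processing notes name Bowtie2 (2.2.0), RSEM (1.2.17), hg19 and mm10, of which hg19 is the human build.

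Columns were matched to days by name and sample title. Levels were compared as log2(value + 1), which makes changes of low genes look smaller, and called at 1 or more with a larger value of at least 50. Single days cannot be tested with 1 library per day, and the days within a step are time points and were not pooled as replicates. All other Notch pathway genes were counted, the 10 with the widest range among the changed ones were named, and for each gene the 3 most correlated genes were found. The genes and lists were chosen with earlier results of these data known. Alternatives were other pseudocounts, minima, thresholds and scalings of the libraries. Marker lists held stage, biliary, stromal and mural, endothelial, mesendoderm and neural genes. Python 3.11.15, numpy 2.4.6, pandas 2.3.3 and matplotlib 3.10.9 were used, and the code was tested on simulated data. A few genes that these rules would name are not reported here.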

Additional observations from a re-analysis of the deposited data

How the results depend on the processing

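The number of the 8 genes called changed stayed within 1.5 times the reported count with pseudocounts of 5 and 0.1, with libraries scaled to an equal total or by the median of ratios, and with day 11 in place of day 13, a setting chosen after the data were seen and under which NOTCH2 was no longer called against day 7. The thresholds moved it. A 4-fold threshold left 0 of 8 at day 3 against day 0 (4.49% of all genes), 2 at day 7 against day 3 (NOTCH1 and LFNG, beside 7.53%), 0 at day 13 against day 7 (4.07%) and 1 at day 21 against day 0 (LFNG, beside 18.8%). It left 5 of the 38 other genes in any comparison (DLK1, HES6, NRARP, MAML2 and NEURL1B), beside 24.9% of all genes. When the larger value had to reach 100, the count was 1 at day 3 against day 0 (10.3%), 0 at day 21 against day 13 (8.8%) and 15 of the 38 other genes (40.3%). With no minimum it was 5 at day 3 against day 0 (22.6%) and 3 at day 21 against day 13 (21%). Fewer or more genes can pass under these settings by construction. Scaling by the median of ratios shifted all genes by a median of 0.19 on the log2 scale for day 21 against day 0. Under it LFNG dropped below the minimum of 50 at day 0, which left 1 gene higher and 1 lower at day 3 against day 0, and the highest day of NOTCH2 moved from 13 to 21. Of 40 log2 differences of single genes under this scaling and 40 with a pseudocount of 5, none changed sign among those called, and 6 moved by more than the spread, all of LFNG and HES4 with the pseudocount. No paired analysis was possible because each day has 1 library, and for the same reason no library could be left out within a day. The paper states only an average sequencing depth over its samples, so the depth of each library is unknown. Values under about 25 are the least precise.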
